A study of Oryza sativa with 156 samples.

Results

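The 8 genes described here are expansins of rice, chosen by name and locus from a list set for this work: the alpha-expansins EXPA1 (LOC_Os04g15840), EXPA2 (LOC_Os01g60770), EXPA4 (LOC_Os05g39990), EXPA5 (LOC_Os02g51040) and EXPA10 (LOC_Os04g49410), and the beta-expansins EXPB3 (LOC_Os10g40720), EXPB4 (LOC_Os10g40730) and EXPB6 (LOC_Os10g40700). They are 8 of the 55986 identifiers in the count table. The samples were leaves of the cultivar IR64 (Oryza sativa), grown 1 plant to a pot, in a severe and a moderate drought course with their own controls. Severe drought pots were raised above the irrigation hose so that they drained faster, moderate drought pots had their supply shut off, and control pots stayed irrigated. The stop of the water supply is recorded at 14 days from sowing for both courses. Each course had a drought and a control arm sampled on each of days 0 to 12 after treatment, with 3 replicates a day, which makes 52 groups and 39 libraries in each of the 4 arms. The labels do not say whether replicates were separate plants, so each p-value reflects only how these libraries scatter, which may be technical. They also do not say which leaf or which part of it was taken, or whether it was still growing.

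Expansins are small secreted proteins that loosen the plant cell wall at acid pH without cutting its polymers, and so let cells under turgor extend. Alpha-expansins act on the walls of most land plants, and grasses hold in addition a large group of beta-expansins that act on their own type of wall. In a grass leaf, extension is held to a growing zone at the leaf base, enclosed by older sheaths, and expansin transcripts are best known from such zones and from elongating stems, roots and coleoptiles. In rice, EXPA4 is known from work on shoot and internode elongation, and EXPA10 from the growth of roots under aluminium.

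Counts of 4 members could be tested. EXPA1, EXPA2, EXPA4 and EXPA10 passed the filter on low counts, with 1377, 3608, 2262 and 12908 reads summed over all libraries. EXPA5 had 26 reads in all, spread over 17 libraries with at most 2 reads in one and none in the other 139, and was not tested. By arm, EXPA5 had a read in 2 of 39 severe drought libraries, 5 of 39 severe control libraries, 4 of 39 moderate drought libraries and 6 of 39 moderate control libraries. Levels are in CPM, counts per 1 M of the scaled library total. One read corresponded to between 0.0383 and 0.14 CPM, and a count of 0 allows up to 3 reads, or 0.115 to 0.42 CPM depending on the library. EXPB3, EXPB4 and EXPB6 were at 0 in every library, as was LOC_Os10g40710, whose number lies between theirs. Every row of chromosomes 10, 11 and 12 in the table, 11684 identifiers, was 0 in every library, so these zeros say nothing about whether the beta-expansins were expressed. All counts of members given here are therefore counts over 4 tested alpha-expansins and not over the 8. Gene lengths were not used, so levels are compared between samples of a gene and never between genes.

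Library totals ranged from 6.42 to 26.2 M counts, with a median of 16.8 M. A set of 3 other genes (LOC_Os01g57960, LOC_Os01g49370 and LOC_Os06g39708), known from earlier work on these data, divided the libraries into 49 with a high mean and 107 with a low mean. The high set held all severe drought libraries up to day 5, all severe control libraries from day 3 on, and 1 day 0 library of moderate drought. Both arms of the severe course thus lay in the same set on days 3 to 5 only, and that stretch is given beside the others, with which it shares libraries. A contrast across days stood in for the set difference. In severe controls it took days 3 to 5 less days 0 to 2. In severe drought it took days 3 to 5 less days 6 to 8, replicate 3 of day 6 included. The same changes in the moderate course were subtracted, and the 2 results averaged. Any change with time or drought particular to the severe course is therefore held in it too. This contrast did not pass edgeR's test for any of the 4 members: it was -0.10 on the log2 scale for EXPA10 (SE 0.12, adjusted p = 0.72). It was -0.07 for EXPA1 (SE 0.54), 0.02 for EXPA2 (SE 0.54) and -0.47 for EXPA4 (SE 1.01). With errors of that size, a difference between the sets in these members could have been missed. Where a set difference is taken out below, this contrast is what was removed. An SE derived from the F statistic is unreliable for an estimate this close to 0, so that of EXPA2 may understate its error. In severe day 6, replicate 3 of both arms stood apart from replicates 1 and 2 in EXPA1, EXPA2 and EXPA4, as given with EXPA2 and EXPA4. The leaf label was not checked against marker genes, because the identifiers are not paired with gene names in the reference used.

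EXPA10 was lower in drought than in control leaves in both courses. In the severe course it was lower by 30.4% on days 1 to 4, by 26.5% on days 5 to 8 and by 31.1% on days 9 to 12. In the moderate course it was lower by 27.9% on days 1 to 4 and by 22.6% on days 5 to 8. The estimate for moderate days 9 to 12, 15.8% lower, did not pass the test. In bulk leaf samples, fewer cells expressing a gene and less RNA per cell cannot be told apart.

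On days 9 to 12 of the severe course, the 12 drought libraries held between 3.29 and 5.11 CPM of EXPA10 with a median of 3.93 CPM, and the 12 control libraries between 4.72 and 7.68 CPM with a median of 5.66 CPM. The ranges met over a narrow band: 10 of the 12 drought libraries lay below every control library. The log2 fold change was -0.54 (SE 0.10, adjusted p = 9.9e-06, edgeR's quasi-likelihood test with Benjamini-Hochberg adjustment over 19338 genes). On days 1 to 4 of the severe course, EXPA10 ran from 2.47 to 5.34 CPM in drought libraries (median 3.85 CPM) and from 4.11 to 8.36 CPM in control libraries (median 5.36 CPM). All 12 drought libraries lay below the control median, and the log2 fold change was -0.52 (SE 0.11, adjusted p = 3.1e-05). On days 5 to 8 it ran from 3.64 to 5.11 CPM in drought (median 4.58 CPM) and from 4.06 to 9.01 CPM in control (median 5.83 CPM), with a log2 fold change of -0.44 (SE 0.11, adjusted p = 0.00070). Here too all 12 drought libraries lay below the control median; the adjusted p was 0.059 when replicate 2 was left out.

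On days 3 to 5 of the severe course, where both arms lay in the same library set, EXPA10 ran from 2.47 to 4.91 CPM in 9 drought libraries (median 3.67 CPM) and from 4.11 to 8.36 CPM in 9 control libraries (median 6.26 CPM). Every drought library was below the control median and every control library above the drought median. The log2 fold change of -0.67 (SE 0.13, adjusted p = 1.1e-05 by edgeR) corresponds to a level 37.1% lower.

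In the moderate course, EXPA10 on days 1 to 4 ran from 3.07 to 5.58 CPM in 12 drought libraries (median 4.05 CPM) and from 3.83 to 6.81 CPM in 12 control libraries (median 6.08 CPM). All 12 drought libraries were below the control median, and the log2 fold change was -0.47 (SE 0.10, adjusted p = 6.7e-05 by edgeR). On days 5 to 8 the ranges were 3.34 to 5.76 CPM in drought (median 4.50 CPM) and 4.58 to 7.36 CPM in control (median 5.49 CPM). The log2 fold change was -0.37 (SE 0.10, adjusted p = 0.0034), and 7 of 12 drought libraries lay below every control library; without replicate 3 the adjusted p was 0.053. On days 9 to 12 the ranges were 3.11 to 5.80 CPM in drought (median 4.85 CPM) and 4.43 to 7.08 CPM in control (median 5.51 CPM), with 9 of 12 drought libraries below the control median. That difference, -0.25 on the log2 scale (SE 0.10, adjusted p = 0.056), did not pass, although it did without replicate 1 (-0.39, adjusted p = 0.024). On days 3 to 5 of the moderate course the log2 fold change was -0.42 (SE 0.12, adjusted p = 0.0030), with 9 of 9 drought libraries below the control median; without replicate 3 it was -0.27 (adjusted p = 0.21).

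Day by day, the EXPA10 estimate was below 0 on 12 of 12 days of the severe course and on 11 of 12 days of the moderate course, while on moderate day 10 it was at 0.00. Single days passed the test on days 2, 3, 5, 9 and 10 of the severe course, where 4.83%, 9.98%, 5.33%, 5.58% and 5.1% of all tested genes were called lower. In the moderate course days 1 and 3 passed, where 11.3% and 2.14% of all tested genes were called lower. Severe day 5 held 3.64, 4.43 and 3.67 CPM in the drought libraries, against 6.31, 7.40 and 6.26 CPM in the control libraries. The 2 arms did not overlap on that day (log2 fold change -0.76, SE 0.22, adjusted p = 0.020). Severe day 3 held 2.47, 3.50 and 3.09 CPM in drought, against 4.11, 7.28 and 4.46 CPM in control, again without overlap (-0.81, SE 0.23, adjusted p = 0.0071). Moderate day 3 held 4.48, 4.00 and 3.57 CPM in drought, against 5.74, 6.81 and 6.78 CPM in control, also without overlap (-0.69, SE 0.20, adjusted p = 0.034). These days are among those that passed, and how many of all genes had arms without overlap was not counted. On severe day 6, by contrast, the drought libraries at 5.08, 4.61 and 4.64 CPM came close to the control libraries at 4.89, 5.30 and 4.97 CPM. Over all days the medians ran, from low to high, 4.30 CPM in severe drought, 4.48 CPM in moderate drought, 5.71 CPM in severe control and 5.87 CPM in moderate control libraries, with both drought arms within 1 SD of each other and both control arms likewise (SD 0.942, 1.01, 1.20 and 1.00 CPM, n = 39 each).

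**Figure D1:**
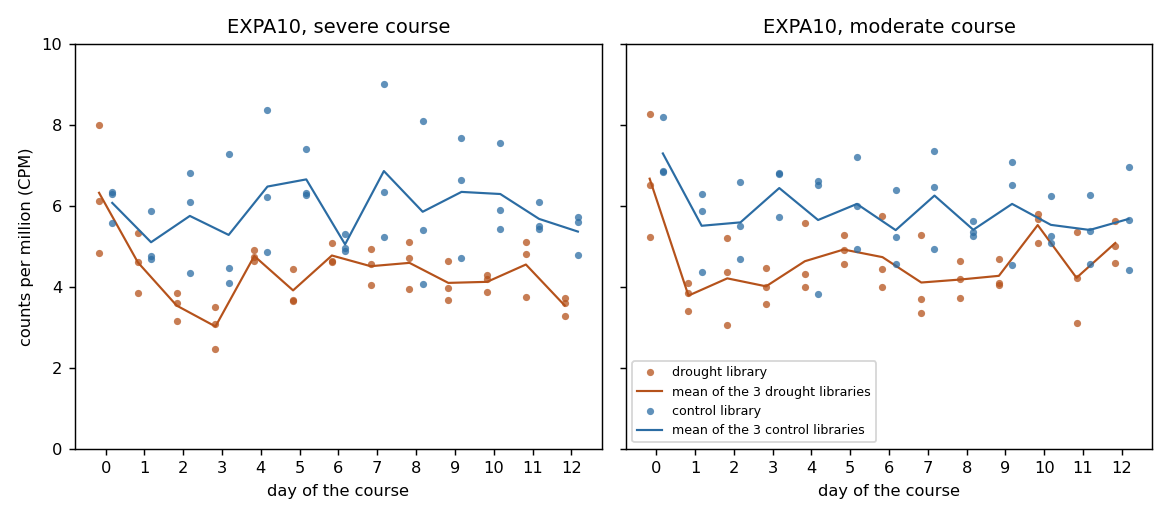
EXPA10 in CPM (linear axis from 0) against the day of the course, in the severe (left) and moderate (right) course; points are libraries, lines join the means of the 3 libraries of each day, and drought is drawn to the left of control. From day 1 on, the drought mean lay below the control mean on every day, though on moderate day 10 both rounded to 5.53 CPM.

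EXPA1, another alpha-expansin, had few reads (median 7 per library) and was called lower in drought in every stretch of the severe course and in none of the moderate course. On days 3 to 5 of the severe course it ran from 0 to 0.68 CPM in drought libraries (median 0.14 CPM) and from 0.202 to 3.02 CPM in control libraries (median 0.938 CPM). Of the drought libraries 9 of 9 lay below the control median and 6 of 9 below every control library. The log2 fold change was -2.65 (SE 0.61, adjusted p = 0.00026 by edgeR), a level 84% lower. On days 1 to 4 of the severe course the ranges were 0 to 0.903 CPM in drought (median 0.285 CPM) and 0.235 to 1.82 CPM in control (median 0.901 CPM), with 11 of 12 drought libraries below the control median (log2 fold change -1.72, SE 0.48, adjusted p = 0.0019).

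The calls of EXPA1 in the 2 later stretches of the severe course were lost when some single replicates were left out. On days 5 to 8 it ran from 0 to 1.58 CPM in drought (median 0.204 CPM) and from 0.142 to 5.62 CPM in control (median 0.507 CPM), with a log2 fold change of -1.78 (SE 0.51, adjusted p = 0.0050). The control maximum of 5.62 CPM was replicate 1 of day 7, where the other control libraries held 0.31 and 0.296 CPM and the drought libraries 0.257, 0 and 0.0561 CPM. Without replicate 1 the log2 fold change was -1.08 (adjusted p = 0.36), and without replicate 2 it was -1.33 (adjusted p = 0.11). On days 9 to 12 the ranges were 0 to 0.504 CPM in drought (median 0.068 CPM) and 0 to 1.26 CPM in control (median 0.507 CPM). All 12 drought libraries lay below the control median (log2 fold change -1.57, SE 0.57, adjusted p = 0.019), but the adjusted p was 0.13 with the difference between library sets taken out (-1.65) and 0.092 without replicate 1 (-2.19). Over the 10 alternatives run the log2 fold change stayed between -2.19 and -1.56.

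In the moderate course EXPA1 ran from 0.139 to 0.716 CPM in drought and from 0.213 to 1.63 CPM in control libraries on days 1 to 4 (medians 0.47 and 0.705 CPM). Of those drought libraries 11 of 12 lay below the control median. The log2 fold changes of -0.65 on days 1 to 4 (adjusted p = 0.19), -0.59 on days 5 to 8 (adjusted p = 0.22) and 0.14 on days 9 to 12 (adjusted p = 0.89) did not pass edgeR's test. Nor did -0.30 on days 3 to 5 (SE 0.45, adjusted p = 0.65), with 6 of 9 drought libraries below the control median. On day 0 of the severe course the drought libraries held 1.93, 0.985 and 1.44 CPM, against 0.221, 1.26 and 0.149 CPM in the control libraries. The arms overlapped there and the difference did not pass. Of the single days, 1, 5 and 7 of the severe course passed for EXPA1, where 17.1%, 5.33% and 2.97% of all tested genes were called lower.

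EXPA1 was the only tested member called between the late and the early days of the moderate controls. The 12 control libraries of days 9 to 12 ran from 0 to 0.72 CPM with a median of 0.26 CPM, and the 12 of days 1 to 4 from 0.213 to 1.63 CPM with a median of 0.705 CPM. The log2 change was -1.54 (SE 0.45, adjusted p = 0.022 by edgeR), in a comparison where 2.56% of all tested genes were called lower. It did not pass without replicate 1 (-1.71, adjusted p = 0.055) or without replicate 2 (-0.85, adjusted p = 0.41), and was -2.17 without replicate 3 (adjusted p = 0.025). In the drought arm of the same course 0 of 4 members were called between these days (0 at an unadjusted p under 0.05, 0 by DESeq2), while 35.3% of all tested genes were. For EXPA1 that change was -0.74 (SE 0.49, adjusted p = 0.25).

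EXPA2 and EXPA4 were called lower in drought on days 1 to 4 and 3 to 5 of the severe course, and EXPA2 also on days 9 to 12. Their levels varied widely between libraries of the same group, from no read to 15.0 CPM for EXPA2 in the control libraries of severe day 5. On days 3 to 5 of the severe course EXPA2 ran from 0 to 1.85 CPM in 9 drought libraries (median 0.11 CPM) and from 0 to 15.0 CPM in 9 control libraries (median 4.43 CPM). The log2 fold change was -3.68 (SE 0.92, adjusted p = 0.00066 by edgeR). All 9 drought libraries lay below the control median, and 1 control library also held no read. Leaving out replicate 1, which holds the control library at 15.0 CPM, gave -1.91 (adjusted p = 0.57).

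On days 1 to 4 of the severe course EXPA2 ran from 0 to 4.73 CPM in drought libraries (median 0.928 CPM) and from 0.196 to 17.2 CPM in control libraries (median 4.76 CPM), with 12 of 12 drought libraries below the control median (log2 fold change -2.32, SE 0.65, adjusted p = 0.0020). Without replicate 2 it was -1.76 (adjusted p = 0.11). The highest values came on day 1, with 0.084, 1.03 and 4.73 CPM in the drought libraries, against 9.30, 17.2 and 3.51 CPM in the control libraries. The arms overlapped on day 1 through drought replicate 3. On days 9 to 12 EXPA2 ran from 0 to 1.80 CPM in drought (median 0.0677 CPM) and from 0 to 6.36 CPM in control (median 0.80 CPM), with a log2 fold change of -2.81 (SE 0.94, adjusted p = 0.0099). The call was lost with the library set difference taken out (-2.80, adjusted p = 0.19) and without replicate 1 (-2.78, adjusted p = 0.36), while the log2 fold change stayed between -4.03 and -2.61 over the 10 alternatives run.

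On days 3 to 5 of the severe course EXPA4 ran from 0 to 1.55 CPM in drought libraries (median 0.108 CPM) and from 0 to 10.6 CPM in control libraries (median 1.34 CPM). The log2 fold change was -3.22 (SE 0.93, adjusted p = 0.0033), with 8 of 9 drought libraries below the control median; it was -1.65 without replicate 1 (adjusted p = 0.55) and -3.09 without replicate 2 (adjusted p = 0.059). On days 1 to 4 it ran from 0 to 3.11 CPM in drought (median 0.391 CPM) and from 0.156 to 8.24 CPM in control (median 2.05 CPM), with a log2 fold change of -2.22 (SE 0.66, adjusted p = 0.0034). Without replicate 2 that became -1.95 (adjusted p = 0.072). On days 9 to 12 the estimate of -1.76 did not pass (adjusted p = 0.12). Severe days 1 and 5 passed as single days for both EXPA2 and EXPA4. On day 5 the EXPA2 values were 0, 0.462 and 0.108 CPM in drought, against 15.0, 0.208 and 0 CPM in control, so 1 control library, replicate 1, lay above the drought libraries and the other two did not. The EXPA4 values of that day were 0, 0.0923 and 0.108 CPM in drought and 10.6, 0.208 and 0 CPM in control, so 2 of the 3 control libraries lay above the drought libraries.

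On severe day 6 the replicates were split. EXPA2 stood at 0, 0 and 8.76 CPM in drought replicates 1, 2 and 3, and at 9.08, 7.21 and 0 CPM in control replicates 1, 2 and 3. EXPA4 stood at 0.0612, 0 and 6.39 CPM in drought and at 5.24, 4.20 and 0.189 CPM in control. EXPA1 stood at 0.551, 0.0931 and 1.58 CPM in drought and at 0.814, 0.639 and 0.142 CPM in control. In these 3 genes the replicate 3 libraries thus had the opposite order to replicates 1 and 2. With all libraries, severe days 5 to 8 gave log2 fold changes of -1.06 for EXPA2 (adjusted p = 0.36) and -1.25 for EXPA4 (adjusted p = 0.22). Without the replicate 3 libraries of day 6 they were -3.38 (adjusted p = 0.018) and -2.93 (adjusted p = 0.0053), and EXPA1 was at -2.27 (adjusted p = 0.00041) in place of -1.78. These libraries stand apart by the values of these same genes. Leaving them out therefore lowers the estimates by construction, and the smaller p-values are no separate support for a difference. Whether these libraries were exchanged was not tested. By the 3 genes that mark the library sets, each replicate 3 library lay in the same set as replicates 1 and 2 of its arm. EXPA10 held 4.64 CPM in drought replicate 3 and 4.97 CPM in control replicate 3, on a day when its arms overlapped.

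In the moderate course EXPA2 did not pass in any stretch (log2 fold changes of -1.20, -1.05 and -0.99 on days 1 to 4, 5 to 8 and 9 to 12, adjusted p = 0.38, 0.15 and 0.45). On days 3 to 5 it was at -1.54 (SE 1.22, adjusted p = 0.34 by edgeR), with 8 of 9 drought libraries below the control median. On days 5 to 8 it passed without replicate 2 (-3.08, adjusted p = 0.030) and was -0.14 without replicate 3 (adjusted p = 0.93). EXPA4 passed on days 5 to 8, where it ran from 0 to 2.58 CPM in drought (median 0.488 CPM) and from 0.194 to 5.69 CPM in control (median 1.46 CPM), with 10 of 12 drought libraries below the control median (log2 fold change -1.27, SE 0.50, adjusted p = 0.045). It stayed past the threshold under 2 of 9 alternatives, with a log2 fold change between -2.01 (without replicate 2, adjusted p = 0.024) and -0.55 (without replicate 3, adjusted p = 0.59). The other moderate estimates of EXPA4, -1.62 on days 1 to 4 (adjusted p = 0.18) and -0.72 on days 9 to 12 (adjusted p = 0.52), did not pass in the fit to all libraries. Nor did -1.49 on days 3 to 5 (SE 1.11, adjusted p = 0.31 by edgeR), with 8 of 9 drought libraries below the control median. With the libraries of days 1 to 4 fitted alone, EXPA4 was called there by both edgeR (-1.64, adjusted p = 0.013) and DESeq2 (-1.71, adjusted p = 0.0011).

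**Figure D2:**
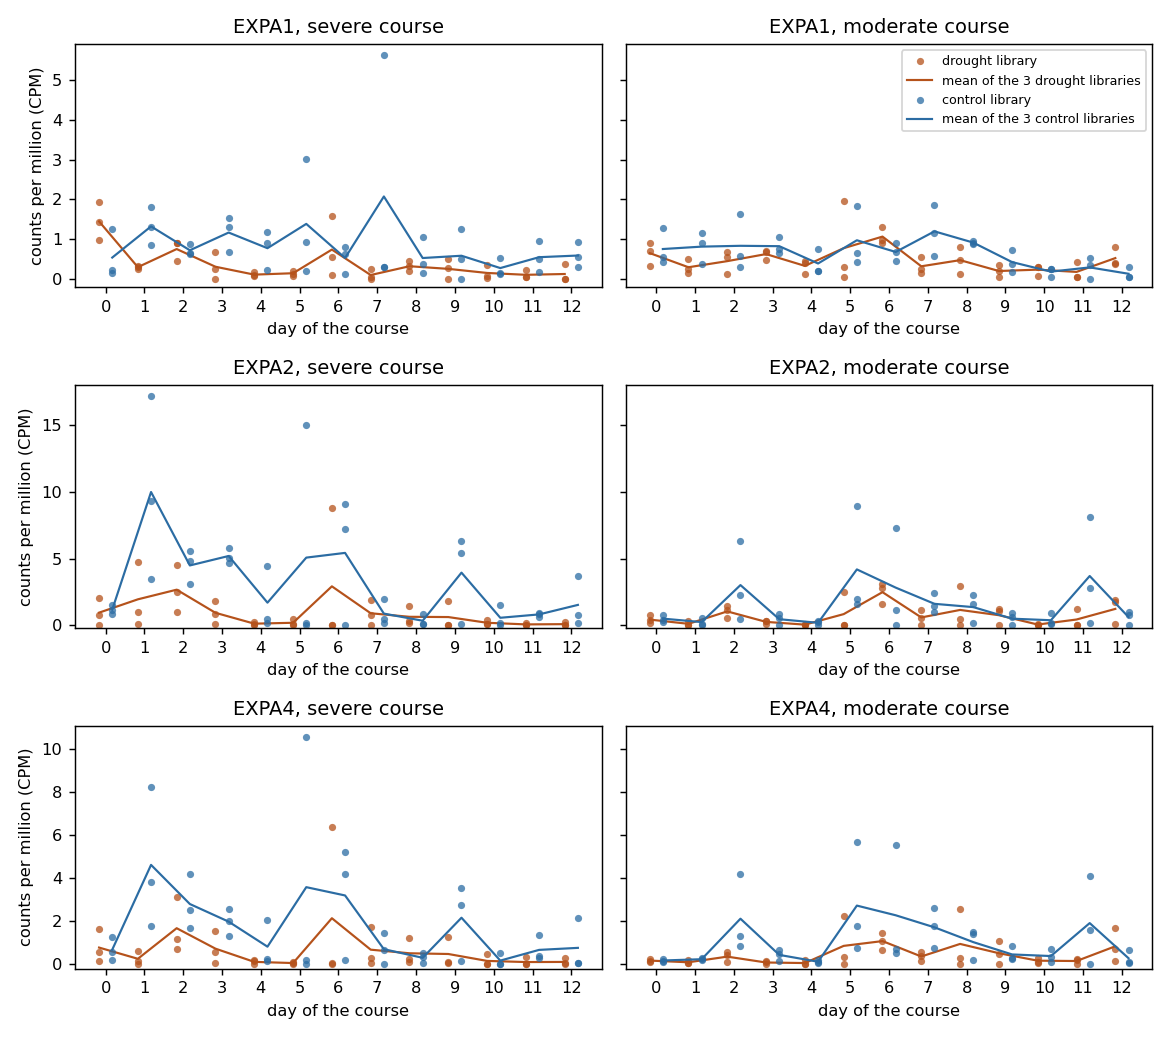
EXPA1 (top), EXPA2 (middle) and EXPA4 (bottom) in CPM (linear axis, its range set per gene) by day of the severe (left) and moderate (right) course; points are libraries, lines join the means of 3, and drought is drawn to the left of control. Single control libraries reached 5.62 CPM for EXPA1, 17.2 CPM for EXPA2 and 10.6 CPM for EXPA4, and the highest drought values of EXPA2 and EXPA4, 8.76 and 6.39 CPM, were replicate 3 of severe day 6.

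By the number of members, 4 of the 4 tested were called lower in drought on severe days 1 to 4, where 24% of all 19338 tested genes were called lower. On severe days 5 to 8 it was 2 of 4 (14.5% of all genes), on days 9 to 12 it was 3 of 4 (22.7%) and on days 3 to 5 it was 4 of 4 (21.3%). In the moderate course 1 of 4 was called lower on days 1 to 4 (21.4% of all genes), 2 of 4 on days 5 to 8 (14.5%), 0 of 4 on days 9 to 12 (11.6%) and 1 of 4 on days 3 to 5 (15.7%). None was called higher in any of these. Over single days, 12 of 48 tests of a member on a day were called lower in the severe course, where 6.89% of all tests of a gene on a day were. For the moderate course it was 2 of 48, where 3.16% of all such tests were. With each replicate number left out in turn there were 3 to 7 such calls in the severe course and 0 in the moderate one. For moderate days 9 to 12, 1 member, EXPA10, had an unadjusted p under 0.05 in edgeR and 0 were called by DESeq2. The median log2 fold change of the 4 members was -1.97 on severe days 1 to 4 and -0.93 on moderate days 1 to 4, while that of all tested genes was 0.01 and 0.02. On day 0, 0 of 4 members were called in either course (0 at an unadjusted p under 0.05 and 0 by DESeq2), with 1.31% of all genes called in the severe course and 4.7% in the moderate one.

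**Figure D3:**
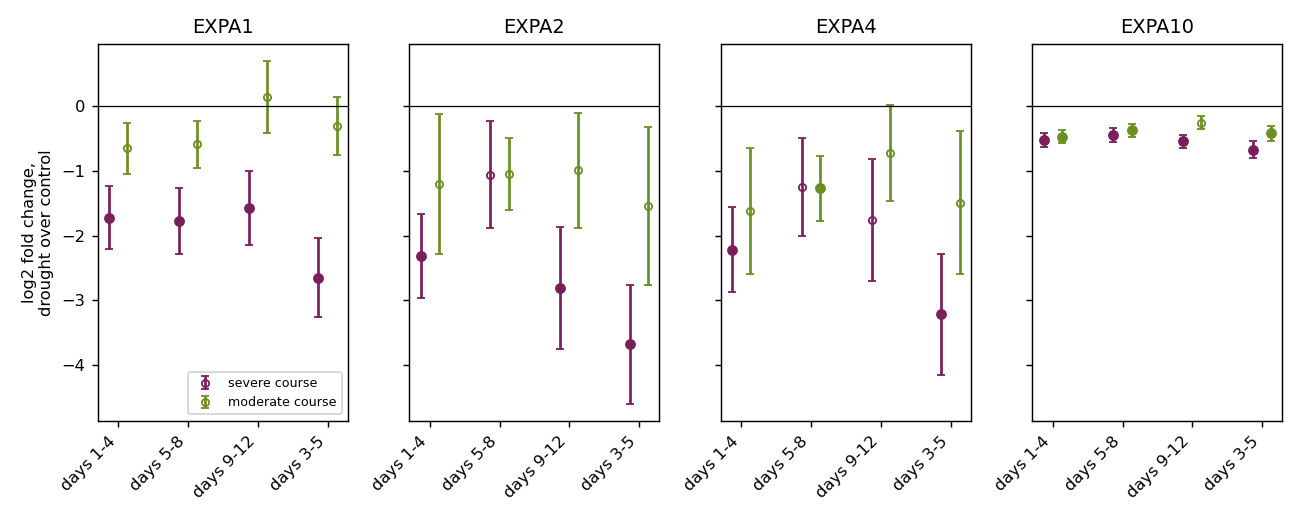
Log2 fold change of drought over control for the 4 tested members, by stretch of days, in the severe (left of each pair) and moderate (right) course; bars are ± 1 SE, and filled points passed an adjusted p of 0.05. EXPA10 lay between -0.67 and -0.25 with short bars. The other members had wider bars, with values from -3.68 to -1.06 in the severe course and from -1.62 to 0.14 in the moderate course. On days 5 to 8 the severe and moderate values were close for EXPA2 (-1.06 and -1.05) and EXPA4 (-1.25 and -1.27), and apart for EXPA1 (-1.78 and -0.59).

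The difference in drought effect between the courses was tested directly, and no member passed. Of the 4 members, 0 were called for severe minus moderate on days 1 to 4, 5 to 8, 9 to 12 or 3 to 5, where 0.414%, 0.533%, 11% and 2.24% of all genes were called. Except on days 3 to 5, the severe arms lay partly or wholly in different library sets and the moderate arms did not. Those comparisons, with their shares of all genes, therefore also hold any difference between the sets. DESeq2 also called 0 in each. At an unadjusted p under 0.05, edgeR had EXPA1 on days 3 to 5, and EXPA1 and EXPA10 on days 9 to 12. EXPA1 differed by -2.35 on days 3 to 5 (SE 0.79, adjusted p = 0.096) and by -1.72 on days 9 to 12 (SE 0.81, adjusted p = 0.16). EXPA10 differed by -0.25 on days 3 to 5 (SE 0.17, adjusted p = 0.57) and by -0.29 on days 9 to 12 (SE 0.14, adjusted p = 0.18). Calls of EXPA1 and EXPA2 in the severe course alone are therefore not shown to be particular to it. For a change in drought effect between late and early days (9 to 12 minus 1 to 4), edgeR called 0 of 4 members in either course. None had an unadjusted p under 0.05 or was called by DESeq2, while 43.7% (severe) and 19.7% (moderate) of all tested genes were called. The severe estimates were 0.15 for EXPA1 (SE 0.89), -0.50 for EXPA2 (SE 1.28), 0.46 for EXPA4 (SE 1.23) and -0.01 for EXPA10 (SE 0.15). With such errors a change in the first 3 could have been missed. The severe arms lay in opposite sets on days 9 to 12, and the other way round on days 1 and 2. The severe comparison, with its share of all genes, therefore also holds any set difference.

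The 4 members differed in how much they varied between replicates. The biological coefficient of variation was 13.9% for EXPA10, below the median of 16.4% over all tested genes, and 69.9% for EXPA1, 111% for EXPA4 and 130% for EXPA2. Within a day's 3 libraries, the highest EXPA10 value was at the median 1.33 times the lowest and at most 2.00 times, over 52 groups. For EXPA2, the 32 groups with no library at 0 had a median ratio of 7.99, and for EXPA4 the 37 such groups had 5.61. Counting error alone widens such ratios at low reads, and the median per library was 8.5 reads for EXPA2, 5 for EXPA4 and 80 for EXPA10.

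EXPA2 and EXPA4 varied together from library to library. Across all libraries Pearson's r of their log2 CPM was 0.90 and Spearman's rho 0.86, and r was 0.89 without the 2 libraries farthest from the EXPA2 median. With the group means removed r was 0.88, so the pair also moved together within the 3 libraries of the same day, arm and course. Within arms it was 0.88 in severe drought, 0.94 in severe control, 0.85 in moderate drought and 0.86 in moderate control libraries (39 each). Among the 19337 other tested genes, EXPA2 had the highest r with EXPA4, and EXPA4 the next to highest with EXPA2. These values describe libraries that share days and treatments, and their log2 values share each library's total. How reads matching both genes were counted is not given in the sources used here, and the part of shared reads in this likeness was not tested.

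The libraries with the most EXPA2 were largely controls. Of its top 10, 6 were severe controls, 3 moderate controls, 1 severe drought (day 6, replicate 3) and 0 moderate drought, and 8 of the 10 were also among the top 10 for EXPA4. The top 10 reached from 6.36 to 17.2 CPM and came from days 1, 5, 6, 9 and 11. EXPA10 in these libraries lay between 4.64 and 6.64 CPM, within its range of 2.47 to 9.01 CPM over all libraries. Across all libraries EXPA10 had an r of 0.20 with EXPA2, 0.18 with EXPA4 and 0.41 with EXPA1, and EXPA1 had 0.57 with EXPA2 and 0.59 with EXPA4.

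**Figure D4:**
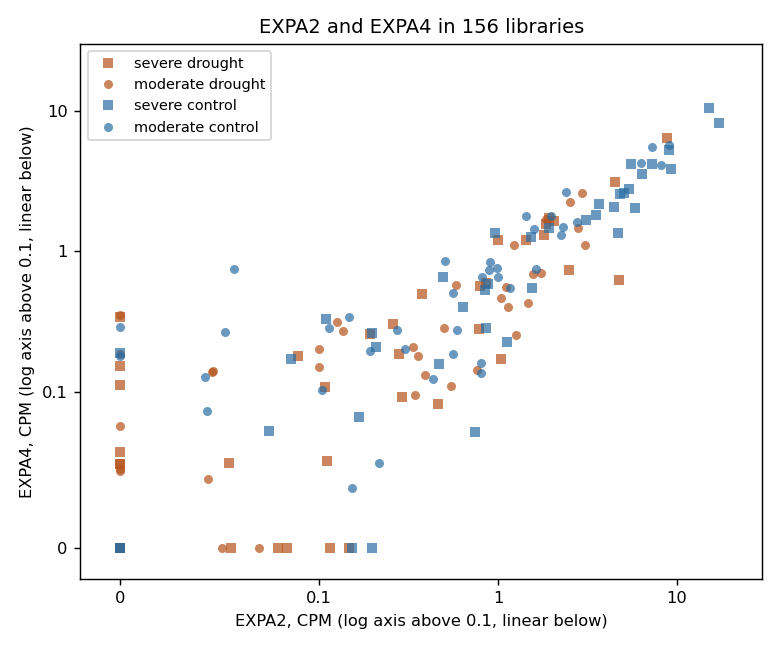
EXPA4 against EXPA2 in CPM over all libraries of both courses (both axes logarithmic above 0.1 and linear below), with drought in orange and control in blue, squares for the severe and circles for the moderate course. The points follow a single band (r = 0.90 on log2 CPM), and 9 of the 10 highest EXPA2 libraries are controls.

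Over the 52 group means, EXPA4 was the member most like the mean of the other 3 (r = 0.89), followed by EXPA2 (0.85) and EXPA1 (0.66), and EXPA10 was the least like them (0.33). Among 10541 other genes whose log2 CPM averaged 3 or more, the pair most like the mean of the 4 members was LOC_Os06g08090 (r = 0.91) and LOC_Os06g37560 (r = 0.90). The reference used gives no name for either identifier. These member means were taken over log2 values not scaled for spread, so EXPA2 and EXPA4, which varied most, weigh most in them. The r of EXPA2 with EXPA4 over the group means was 0.92, so the order of the members largely restates that pair.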

How the data were processed

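Libraries of leaf polyA RNA were prepared with a directional kit, per the labels' protocols. The authors deposited 1 table of unnormalised read counts. Their processing notes name STAR, featureCounts 2.0.0 and the build IRGSP-1.0. Neither the strand setting nor the handling of reads matching several genes is stated there. Columns were matched to samples by name, and 4 columns matching no sample were not used. edgeR 4.0.16 in R 4.3.3 kept 19338 genes (filterByExpr, minimum count 10, minimum total 15), scaled totals by TMM and fitted 52 group means to all 156 libraries (quasi-likelihood, 104 residual degrees of freedom). Stretches were means over days of drought minus control, Benjamini-Hochberg adjusted over all tested genes (threshold 0.05). Standard errors were derived from the F statistic and are unreliable where the estimate is close to 0. DESeq2 1.42.0 was an alternative. Log2 CPM used a prior count of 2. Intervals and limits from read numbers cover counting error only.

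The 8 members, the lists and the tests were chosen with earlier results of these data known. Named genes were the 8 members, LOC_Os10g40710, the 2 genes most like the members and the 3 genes that mark the library sets. Member names were found in RefSeq (ASM3414082v1) for 8 of 8, on the chromosome their identifier gives, but 0 of the LOC_Os identifiers matched there, so no coordinates or sequences are given. For the same reason lists of 24 other loci (expansins, cellulose synthases, leaf markers) were not used.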

Additional observations from a re-analysis of the deposited data

How the results depend on the processing

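EXPA10 kept its direction under every alternative run in the 8 stretches, and its calls on severe days 1 to 4, 9 to 12 and 3 to 5 and on moderate days 1 to 4 kept their side of the threshold under all of them. The number of members called, of 4, moved with the following settings. On moderate days 1 to 4 it was 2, instead of 1, both by edgeR and by DESeq2 on the compared libraries only. On moderate days 5 to 8 it was 1, instead of 2, with no filter on low counts, with dispersions estimated beforehand (an alternative chosen after seeing the data), with edgeR and with DESeq2 on the compared libraries only, and with a replicate block. On severe days 5 to 8 it was 4, instead of 2, without the day 6 replicate 3 libraries, which stand apart by the values of the members themselves. It was 1 there with edgeR on the compared libraries only. On severe days 9 to 12 it was 1, instead of 3, with the library set difference taken out. For single days of the moderate course, 2 member-day calls became 0 without the filter, 1 with dispersions estimated beforehand, 1 with edgeR on the compared libraries only and 1 with the replicate block. For single days of the severe course, 12 became 5 without the filter, 6 with the set difference taken out, 4 with edgeR and 4 with DESeq2 on the compared libraries only, and 7 with the replicate block. The cause of these changes was not tested.

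With each replicate number left out in turn, the count ranged from 0 to 3 on moderate days 5 to 8, from 0 to 1 on moderate days 9 to 12 and 3 to 5, from 2 to 4 on severe days 1 to 4 and 3 to 5, from 0 to 4 on severe days 5 to 8, from 1 to 3 on severe days 9 to 12 and from 0 to 1 for the moderate controls over time. It was 0 each time for moderate single days and ranged from 3 to 7 for severe single days. These fits hold fewer samples. EXPA1 on moderate days 9 to 12 turned to -0.51 without replicate 1 and ranged up to 0.84, with none passing. EXPA2 on severe days 5 to 8 turned to 0.38 without replicate 1, where it did not pass, and ranged down to -3.54 without replicate 3, where it passed.

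The replicate block changed no other count by more than 1.5 times. In the pairing check, 13 of 78 same-numbered pairs correlated above 0.1 in their deviations from the group means (median 0.00, range -0.64 to 0.35). The labels give such samples only a shared number, and this check cannot show whether they were paired. The block was set within course and day, across both arms, and was not run for the changes with time within an arm. EXPA1, EXPA2 and EXPA4 had medians of 7, 8.5 and 5 reads per library, which limits how small a difference could be detected for them.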
